A study of Mus musculus with 30 samples.

Results

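The genes described are 10 transcripts of secreted immune signals in the mouse brain: the chemokines Ccl2, Ccl3, Ccl4, Ccl12, Cxcl10 and Cx3cl1 and the cytokines Il1a, Il1b, Tnf and Tgfb1. They were taken by symbol from a table of 23993 genes, in which all 10 had a row. The table gives expression in FPKM (fragments scaled to transcript length and to the mapped fragments of the library) for 24 RNA-seq libraries of tdTomato-positive cells sorted from the medial prefrontal cortex (mPFC). All mice were C57BL/6, 6 to 12 weeks old and heterozygous for a Cre-dependent tdTomato reporter (Ai9). Cre was driven from the Sst locus, active in somatostatin interneurons, or from the Pvalb locus, active in parvalbumin interneurons. The libraries were from 7 nonstressed Sst females, 7 nonstressed Sst males, 3 Sst males after 14 days of chronic unpredictable stress (CUS, a changing schedule of mild stressors) and 7 nonstressed Pvalb males. A further 6 labelled samples, all from females, were not analysed here, so the response of females to CUS was not examined.

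Chemokines are small secreted proteins that attract leukocytes and microglia through G protein-coupled receptors. Ccl2 and Ccl12 act mainly on Ccr2, Cxcl10 on Cxcr3, and Cx3cl1 on Cx3cr1. In the healthy brain microglia are the main source of Il1a, Tnf, Tgfb1 and several CC chemokines, whereas Cx3cl1 is made by neurons and Cx3cr1 is carried by microglia. Il1a, Il1b and Tnf start the acute inflammatory response, and their transcripts are induced within minutes to hours by NF-kB and AP-1 factors and are short-lived. Enzymatic dissociation of brain tissue is known to induce the same early genes in microglia. Tgfb1, made as a latent complex, keeps microglia in their mature state.

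Several checks of the libraries bear on every value below. First, the columns SST0-M and SST1-M hardly differed, with an SD of 0.021 for the log2 ratio over genes (0.267 for the next closest pair), nor did PV2-M and PV0-M, with 0.017 (0.225 for the next closest pair), and each pair was averaged and counted as 1 sample, which left 22 samples. The study counts mice, but the labels do not tie each library to an animal, so p-values measure the spread between these samples. Second, the male Sst libraries had titles of 2 kinds: 3 control samples had a short number (SST3-M, SST4-M and the averaged pair) and 3 a longer code (SS04031R, SST040241L and SST04241LL). All 3 CUS libraries (SS04031LL, SS04031RL and SS04031RR) had a code, and the females and Pvalb males had short titles with a number (SST-F without one), so CUS was also set against coded and numbered controls separately. Small nucleolar RNAs made up 53.7% to 75.9% of the summed FPKM in the coded libraries and 1.87% to 8.29% in the numbered ones. Finally, Xist, the noncoding RNA of the inactive X chromosome, was at 300 to 333 FPKM in 3 Pvalb libraries labelled male (PV5-M, PV4-M and PV1-M), against 0.439 to 6.64 FPKM in the other Pvalb libraries.

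The sorted cells were labelled interneurons, but markers of microglia were far higher than markers of interneurons in every sample. Among the microglia markers Cx3cr1 ranged from 187 to 1253 FPKM and Csf1r, the receptor for colony stimulating factor, from 346 to 1170 FPKM. Gad1, the enzyme that makes GABA, had a median of 0.512 FPKM and a maximum of 2.05 FPKM. Gad2 had a median of 0.766 FPKM, Sst 5.78 FPKM and Pvalb 0.371 FPKM. Markers of astrocytes and oligodendrocytes were present as well (Slc1a3 159 to 377 FPKM, Mbp 51.9 to 518 FPKM). The 7 lymphocyte markers summed to at most 2.59 FPKM. The 6 monocyte and neutrophil markers that had a row summed to 0.224 to 17.9 FPKM over the 22 samples (median 3.14 FPKM). Their sum was 5.89 to 12.9 FPKM in the CUS samples and 0.224 to 9.08 FPKM in the Sst male controls. Of these markers Mpo, of neutrophils, was listed at 0 in 21 samples. The cytokine values below are levels in the RNA of the sorted samples, and which cells carried the transcripts was not tested. In such bulk samples fewer cells of a type and less RNA per cell cannot be told apart.

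**Figure D1:**
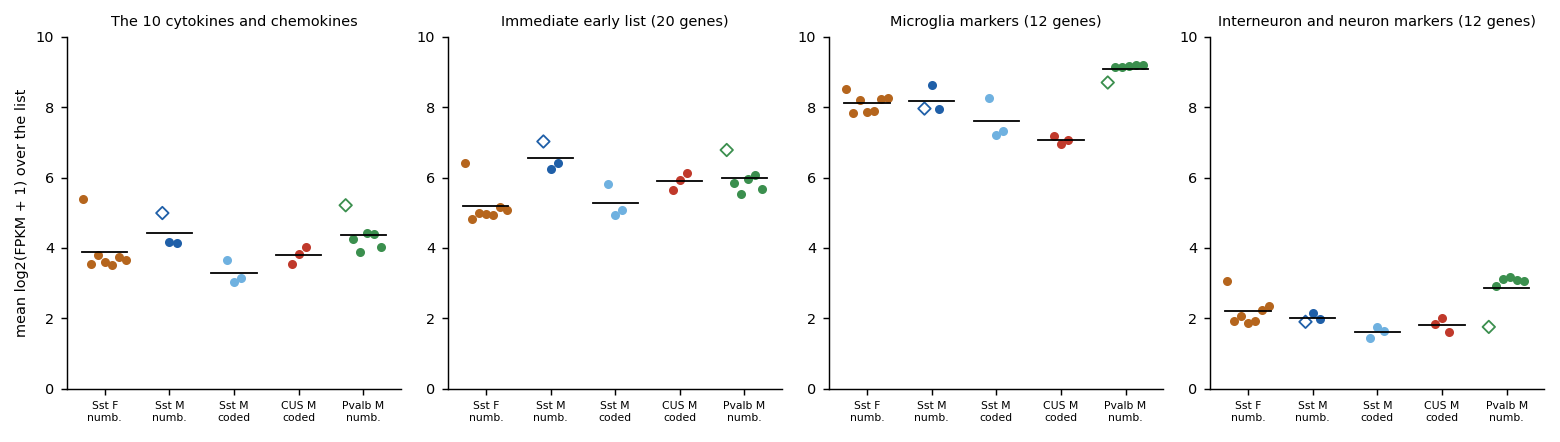
Mean log2(FPKM + 1) over the 10 cytokines and chemokines, the 20 genes of the immediate early list, 12 microglia markers and 12 interneuron and neuron markers, for each sample (points), with group means (bars) and averaged library pairs (open diamonds). Microglia markers lay between 6.96 and 9.19 and interneuron markers between 1.43 and 3.17 in the 22 samples.

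The genes sit in a few clusters of the genome. On chromosome 11 RefSeq (GRCm38.p6, the assembly of mm10) places Ccl2 at chr11:82035577-82037452, Ccl12 at chr11:82101845-82103399, Ccl3 at chr11:83647843-83649378 and Ccl4 at chr11:83648624-83664683. Il1a (chr2:129299609-129310186) and Il1b (chr2:129364569-129371164) are neighbours on chromosome 2. The others are Cxcl10 at chr5:92346638-92348889, Tgfb1 at chr7:25687002-25705077, Cx3cl1 at chr8:94772180-94782427 and Tnf at chr17:35199367-35202007. The spans of Ccl3 and Ccl4 overlap, and those of Cxcl10, Il1a, Il1b and Cx3cl1 each overlap 1 other annotated gene (Art3, Gm14023, Il1bos and Gm51543). Whether reads were counted by strand is not given in the sources used here, so reads in these overlaps cannot be told apart. No stretch of 50 bases of a member's GENCODE M1 transcripts was found in the transcripts of another gene.

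Promoter sequence from RefSeq was at hand for 8 of the 10 genes, all but Ccl2 and Ccl4. The window of 250 bases before to 50 after the transcription start was searched on both strands for the AP-1 site TGANTCA, for the first 9 letters of an NF-kB site, GGGNNTTTC, and for the interferon response letters GAAANNGAA. AP-1 letters were found in Il1a and Cxcl10, that is in 2 of 8, and in 7.81% of all 32851 promoters. The interferon letters were found in Ccl3 and Cxcl10 (8.56% of all promoters) and the NF-kB letters in none of the 8 (4.36% of all promoters). Other forms of the NF-kB site were not searched for, so this result does not mean that these promoters lack such sites. A match is a description of the letters and not of binding. The 250 bases before the start are shown for the 3 genes that held a match, with the matches in capitals, because Il1a and Ccl3 are the highest of the inflammatory transcripts and Cxcl10 holds both kinds of match. The windows are the minus strand of chr2:129309973-129310222 (Il1a), chr11:83649379-83649628 (Ccl3) and chr5:92348890-92349139 (Cxcl10), written 5′ to 3′. The Il1a window, with its AP-1 match, lies largely within the gene span given above, which ends at 129310186. The start used for Il1a is therefore not the end of that span.
Il1a: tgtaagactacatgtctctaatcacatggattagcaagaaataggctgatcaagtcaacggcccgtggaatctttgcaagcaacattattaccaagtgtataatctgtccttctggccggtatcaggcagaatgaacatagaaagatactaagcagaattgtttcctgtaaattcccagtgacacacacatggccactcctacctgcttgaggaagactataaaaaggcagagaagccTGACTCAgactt
Ccl3: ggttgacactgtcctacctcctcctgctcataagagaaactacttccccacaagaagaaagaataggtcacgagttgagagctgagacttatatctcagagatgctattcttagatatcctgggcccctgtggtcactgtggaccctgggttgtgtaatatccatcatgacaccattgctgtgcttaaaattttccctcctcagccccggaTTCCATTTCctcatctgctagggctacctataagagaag
Cxcl10: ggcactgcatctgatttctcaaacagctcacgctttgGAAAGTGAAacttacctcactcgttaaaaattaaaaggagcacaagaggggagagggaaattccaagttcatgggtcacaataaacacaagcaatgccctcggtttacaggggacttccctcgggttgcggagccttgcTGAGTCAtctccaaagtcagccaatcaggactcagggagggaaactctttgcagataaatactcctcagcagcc

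Over all 22 samples the levels, which are per transcript length, spanned nearly the whole range of expressed genes. Ccl3 was the highest (mean 112 ± 85.5 FPKM, SD, n = 22), with 1.66% of the genes of the table above it. The order was not that of every group: in the coded male controls Tgfb1 (mean 61.3 FPKM) was above Ccl3 (32.1 FPKM) and Il1a (31.5 FPKM). Il1a followed at 84.4 ± 65.8 FPKM (2.42% of genes above). Tgfb1 at 40.1 ± 18.9 FPKM, Ccl4 at 36.6 ± 22.05 FPKM and Ccl12 at 30.6 ± 20.8 FPKM were next, and these 3 did not differ beyond their spread. Tnf (20.7 ± 29.1 FPKM) and Ccl2 (15.7 ± 11.1 FPKM) were lower. Cx3cl1 (4.34 ± 2.89 FPKM) and Il1b (2.83 ± 3.56 FPKM) were near the bottom, and their ranges overlapped. Cxcl10 was listed at 0 in 6 of 22 samples and had a median of 0.962 FPKM. All 10 passed the filter on low values (mean above 0.4 FPKM) in the 4 main comparisons.

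The values by sample show that a few samples carried most of this spread. Ccl3, which attracts monocytes and microglia, was 329 FPKM in SST-F, 313 FPKM in the averaged Sst male pair and 275 FPKM in the averaged Pvalb pair, and at most 147 FPKM in the other 19 samples. Il1a, an alarm cytokine, was 207, 274 and 227 FPKM in the same 3 samples and at most 106 FPKM elsewhere. Tnf, the main trigger of NF-kB signalling in neighbouring cells, was 54.5, 95.4 and 112 FPKM in them and at most 26.8 FPKM elsewhere. These 3 samples therefore stood apart from the rest of their groups for all of these transcripts. In them the 20 genes of the immediate early list averaged 6.41, 7.02 and 6.78 on the log2(FPKM + 1) scale, against 4.83 to 6.42 in the others. The 7 markers of border macrophages, the macrophages at the edges of the brain, averaged 2.0017, 2.7839 and 2.7585 in the same samples. Elsewhere these markers averaged at most 1.9847, so the margin for SST-F was narrow. The part of either list in the cytokine values was not tested. The comparisons below were recomputed without these 3 samples, a choice of samples made after their values were seen.

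**Figure D2:**
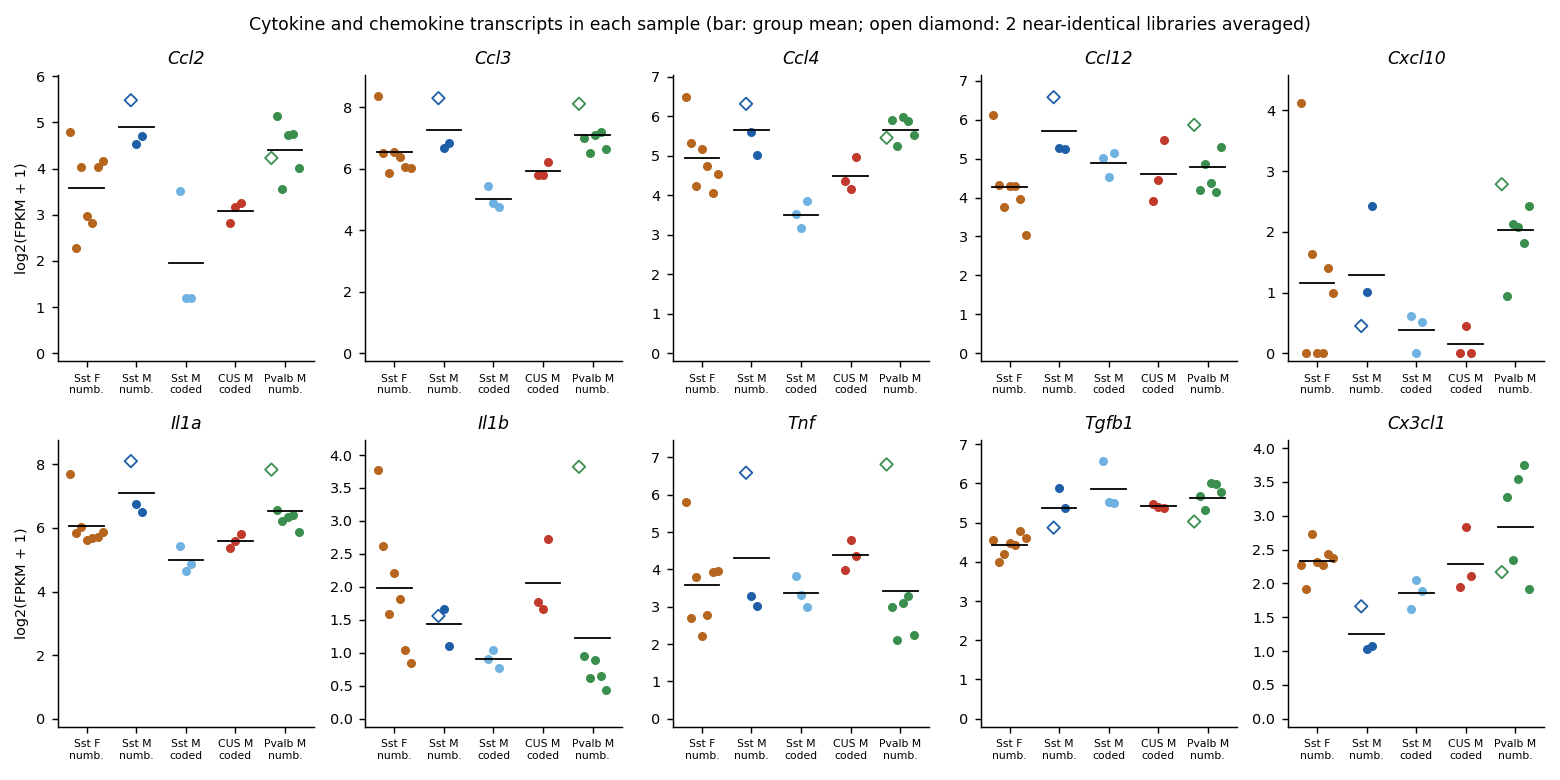
Expression of each of the 10 genes in every sample, as log2(FPKM + 1), by group: Sst female controls, Sst male controls with numbered and with coded titles, CUS males and Pvalb male controls. Points are samples, bars group means and open diamonds the 2 averaged pairs of near-identical libraries, which are among the highest for Ccl3, Il1a and Tnf.

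The first comparison asked whether nonstressed Sst females and males differ. Of the 10 genes, Tgfb1 was lower and Cx3cl1 higher in females, and the other 8 did not pass the threshold (limma on log2(FPKM + 1), two-sided, Benjamini-Hochberg adjusted p below 0.05 over 14498 genes). Genes called in either direction were 11.7% of those tested (1699 genes), so 2 of 10 is near the background. The median difference of the 10 genes, female minus male, was 0.24, beside 0.07 for all genes.

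Tgfb1 in the 7 females was 15.0, 17.4, 20.6, 21.2, 22.4, 23.4 and 26.5 FPKM. In the 6 males it was 28.3, 40.7, 44.3, 44.8, 57.7 and 94.6 FPKM. The groups did not overlap: every female was below every male. Of all genes tested 4.19% did not overlap, and of the 10 members only Tgfb1. The difference was -1.19 (SE 0.24) on the log2 scale with an adjusted p of 0.012, a 2.27-fold lower level in females. It was -0.94 (adjusted p 0.047) against the 3 numbered males alone and -1.43 (adjusted p 0.00065) against the 3 coded males alone, and it was called in each fit without 1 male sample (-0.99 to -1.34). Without SST-F and the averaged male pair it was -1.35 (adjusted p 0.0034). The microglia markers Cx3cr1 (250 against 682 FPKM) and Csf1r (442 against 831 FPKM) were also called lower in females, and with the mean of the marker list as a covariate Tgfb1 was still lower (-1.29, adjusted p 0.0063).

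Cx3cl1, the membrane-bound neuronal chemokine, was 2.78, 3.81, 3.82, 3.995, 4.21, 4.41 and 5.63 FPKM in females. In males it was 1.05, 1.10, 2.08, 2.16, 2.71 and 3.12 FPKM. The groups overlapped in the lowest female and the highest male. The difference was 0.78 (SE 0.22, adjusted p 0.037), a 1.71-fold higher level in females. It was 1.08 (adjusted p 0.042) against numbered males and 0.48 (adjusted p 0.072) against coded males. Leaving out SS04031R, SST3-M or SST4-M gave an adjusted p of 0.070, 0.060 and 0.050, so the call rested on single male samples. Cx3cr1, its receptor, differed in the opposite direction (-1.40, SE 0.26, adjusted p 0.010).

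Ccl12, which attracts monocytes and is found in rodents, came closest among the rest. It ranged in females from 7.27 to 68.6 FPKM with a median of 18.5 FPKM, and in males from 22.1 to 94.4 FPKM with a median of 35.7 FPKM, so that the groups overlapped. The difference was -1.04 (SE 0.41, adjusted p 0.10 in limma). Without SST-F and the averaged male pair it was -1.09 (SE 0.24, adjusted p 0.0079), in a fit that called 29.6% of 14476 genes. Il1b, the cytokine released by inflammasomes, had a median of 2.51 FPKM in females and 1.10 FPKM in males (0.81, SE 0.40, adjusted p 0.18). Il1a (0.02, SE 0.51), Tnf (-0.25, SE 0.62), Ccl2 (0.15, SE 0.68), Ccl3 (0.39, SE 0.54), Ccl4 (0.36, SE 0.51) and Cxcl10 (0.33, SE 0.60) had wide 95% intervals, with lower bounds from -1.56 to -0.72 and upper bounds from 1.07 to 1.60.

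The title kind of the males set the sign for several of these 8 genes. Against the 3 coded males Ccl2 (1.62, adjusted p 0.047), Ccl3 (1.52, adjusted p 0.017), Ccl4 (1.43, adjusted p 0.019) and Il1a (1.09, adjusted p 0.044) were called higher in females, in a fit in which 41.5% of 14532 genes were called in either direction. Against the 3 numbered males the same genes were at -1.32, -0.73, -0.71 and -1.05, none of them called, in a fit that called 3.41% of 14443 genes. Tgfb1 and Cx3cl1 kept their sign in both. Without SST-F, Ccl3 (1.21), Ccl4 (1.17) and Il1a (0.81) were still called higher than in coded males and Ccl2 was not (1.42, adjusted p 0.064), with 48.2% of genes called. Without SST-F and the averaged pair, against the 2 numbered males left, Il1a was called lower in females (-0.83, adjusted p 0.0035), as was Ccl12 (-1.31, adjusted p 0.015), and Tgfb1 and Cx3cl1 were still called, with 22% of genes called.

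The second comparison set Sst controls (13 samples) against Pvalb male controls (6 samples). The genes that name the lines did not both follow the labels: Pvalb was higher in the Pvalb samples (2.64 against 0.373 FPKM, adjusted p 0.0044), but Sst was lower in the samples labelled Sst (9.25 against 23.3 FPKM, adjusted p 0.049). Directions below are therefore those of the libraries labelled Sst and Pvalb. None of the 10 genes passed the threshold, in a fit that called 7.80% of 14524 genes (1133 genes), and 4 had an unadjusted p below 0.05. The 10 genes had a median difference, Sst minus Pvalb, of -0.70, beside 0.004 for all genes, and 8 of 10 were below 0. Cx3cl1 came closest to the threshold (-0.86, SE 0.29, adjusted p 0.073 in limma). In Pvalb samples it was 2.78, 3.49, 4.07, 8.67, 10.7 and 12.5 FPKM, and in the Sst controls 1.05 to 5.63 FPKM. The 3 highest Pvalb values were those of the libraries with high Xist, and without these libraries the difference was -0.17 (SE 0.33).

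Ccl4 was 37.3 to 61.7 FPKM in Pvalb samples (median 51.3 FPKM). It was 15.8 to 88.9 FPKM in Sst females and 7.98 to 78.6 FPKM in Sst males, whose ranges reached above and below the Pvalb range (-0.89, SE 0.39, adjusted p 0.16 in limma). Cxcl10, induced by interferons, was 0.931, 2.51, 3.22, 3.36, 4.37 and 5.88 FPKM in Pvalb samples. It was listed at 0 in 4 of 13 Sst controls and reached 16.4 FPKM in SST-F (-1.02, SE 0.48, adjusted p 0.19 in limma). Tgfb1 was 31.6 to 63.4 FPKM in Pvalb males, within the range of Sst males. It was above all 7 Sst females, and 6.61% of all genes did not overlap between these groups. Against Sst females alone the difference was -1.20 (SE 0.17, adjusted p 0.00048), in a fit that called 25.1% of genes, and this comparison differs in both labelled sex and line, so the contributions of sex and line cannot be told apart.

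Without SST-F and both averaged pairs, 4 of the 10 genes were called lower in Sst samples: Ccl3 (-0.90, adjusted p 0.047), Ccl4 (-1.23, adjusted p 0.015), Cxcl10 (-1.10, adjusted p 0.041) and Cx3cl1 (-0.99, adjusted p 0.033). This fit called 22.8% of 14495 genes. The microglia marker level moved with the comparison: the mean over the 12 markers was 8.70 to 9.19 in the Pvalb samples and 7.22 to 8.62 in the Sst controls on the log2(FPKM + 1) scale, and with this level as a covariate 2 genes of the whole table were called and the median of the 10 genes was 0.40. The endothelial markers moved the other way: in the fit with all samples, which called 7.80% of genes, 6 of 7 were called higher in Sst samples (Flt1 22.8 against 3.49 FPKM). Of the 12 interneuron and neuron markers 4 were called, all lower in Sst samples, among them Snap25 (40.5 against 141 FPKM) and Rbfox3 (2.68 against 12.2 FPKM), in the same direction as the values of the neuronal chemokine Cx3cl1. The part of these markers in the member values was not tested.

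**Figure D3:**
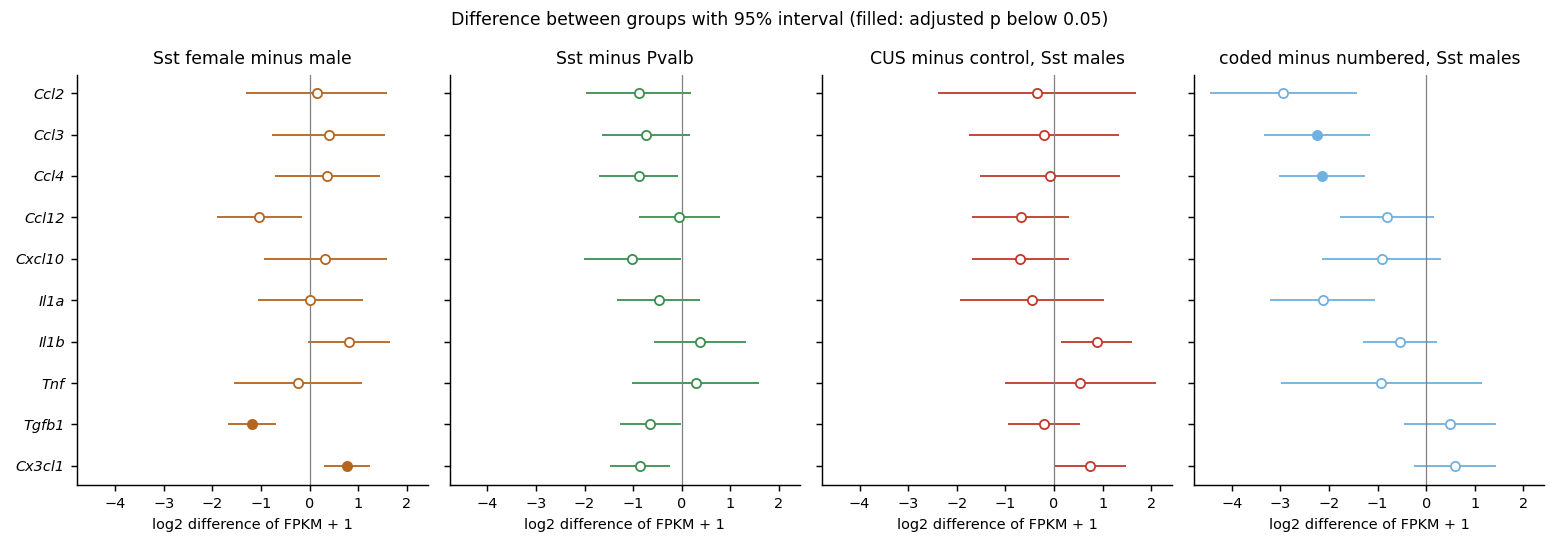
Difference of log2(FPKM + 1) with its 95% interval for each gene in 4 comparisons: Sst female minus male, Sst minus Pvalb, CUS minus control in Sst males and coded minus numbered titles in Sst male controls. Filled points have an adjusted p below 0.05 in limma: Tgfb1 and Cx3cl1 between the sexes and Ccl3 and Ccl4 between title kinds.

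The third comparison asked how Sst males respond to CUS. None of the 10 genes passed the threshold against the 6 male controls, in a fit that called 1 of 14319 genes (0.00698%), and 1 had an unadjusted p below 0.05. This was Il1b, at 2.17, 2.40 and 5.61 FPKM after CUS and 0.701, 0.864, 1.05, 1.15, 1.95 and 2.16 FPKM in controls. All CUS samples were above all controls, by a narrow margin. Of all genes tested 7.10% did not overlap between these groups, beside 1 of the 10 members. The Il1b difference was 0.88 (SE 0.33, adjusted p 0.64 in limma). Without SS04031RR it was 0.54 (adjusted p 0.90 in limma).

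The controls of the same title kind as the CUS libraries gave a different picture from the numbered ones. Ccl3 was 54.4, 54.8 and 73.4 FPKM after CUS, 25.7, 28.4 and 42.1 FPKM in coded controls and 100.0, 114 and 313 FPKM in numbered controls. Ccl4 was 16.9, 19.4 and 30.2 FPKM after CUS, 7.98, 10.4 and 13.4 FPKM in coded controls and 31.4, 47.8 and 78.6 FPKM in numbered controls. For both genes the CUS samples lay above every coded control and below every numbered control. Against the numbered controls 44.7% of all genes, and 7 of the 10 members, did not overlap. Il1a was 40.7, 47.0 and 54.8 FPKM after CUS, which overlapped with the coded controls (23.9, 28.4 and 42.2 FPKM) and lay below the numbered ones (89.3, 106 and 274 FPKM).

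Tnf was 14.8, 19.6 and 26.8 FPKM after CUS and 6.96, 8.91 and 13.3 FPKM in coded controls. The numbered controls were at 7.08, 8.81 and 95.4 FPKM, so that the averaged pair alone was above the CUS samples. Ccl2, the main attractant of monocytes, was 6.05, 7.95 and 8.58 FPKM after CUS, 1.29, 1.29 and 10.4 FPKM in coded controls and 22.01, 24.9 and 43.6 FPKM in numbered controls. It overlapped with the coded controls and lay below the numbered ones. Ccl12 (14.1, 20.9 and 43.4 FPKM after CUS) and Cx3cl1 (2.84, 3.31 and 6.11 FPKM) overlapped with the coded controls, which were at 22.1 to 34.5 FPKM and 2.08 to 3.12 FPKM. Cxcl10 was listed at 0 in 2 CUS samples and was 0.361 FPKM in the other one, and it was 0, 0.437 and 0.540 FPKM in coded controls.

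Against the 3 coded controls 1 of 14186 genes was called (0.00705%) and none of the 9 members that passed the filter. Cxcl10 missed the filter. For it the difference of mean log2(FPKM + 1) was -0.23, with p = 0.4 in a two-sided exact permutation test, which with 3 against 3 samples cannot go below 0.1. The differences were 0.92 (SE 0.22) for Ccl3, 0.98 (SE 0.26) for Ccl4, 1.15 (SE 0.31) for Il1b, 1.00 (SE 0.28) for Tnf and 0.61 (SE 0.23) for Il1a, each with an unadjusted p below 0.05 and an adjusted p of 0.65 in limma. Of the 9 members, 5 did not overlap between the groups, beside 18.7% of all genes tested. Of these, 4 had higher values after CUS, and Tgfb1 was at lower values (40.6, 41.3 and 43.4 FPKM against 44.3, 44.8 and 94.6 FPKM). The immediate early list, of which no gene was called, had a median difference of 0.54 in the same fit. The microglia markers had a median of -0.61, the oligodendrocyte markers of 0.91 and the endothelial markers of 1.57, and their part in the cytokine values was not tested.

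Against the 3 numbered controls 16.1% of 14326 genes were called, and of the 10 members Ccl2 was called lower (-1.82, SE 0.30, adjusted p 0.014). Ccl3 was at -1.33, Ccl4 at -1.15 and Il1a at -1.53, with adjusted p-values of 0.089, 0.086 and 0.057. In the same fit 7 of 11 microglia markers were called lower (median -1.21; Tyrobp 64.9 against 1248 FPKM), and of 20 immediate early genes 8 were called lower and 1 higher (median -0.72); their part in the member values was not tested. Without the averaged pair, which leaves 2 numbered controls, 44.4% of genes were called. Of the members, Ccl2 (-1.53), Ccl3 (-0.82), Ccl4 (-0.82), Cxcl10 (-1.57) and Il1a (-1.03) were then called lower and Tnf (1.23) and Cx3cl1 (1.24) higher after CUS, with adjusted p-values from 0.00053 to 0.039 in limma. The sign of the CUS difference of Ccl2, Ccl3, Ccl4 and Il1a thus depended on which male controls were used. For Il1b, Tnf and Cx3cl1 it was above 0 against both kinds of control, and for Ccl12 below 0 against both.

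**Figure D4:**
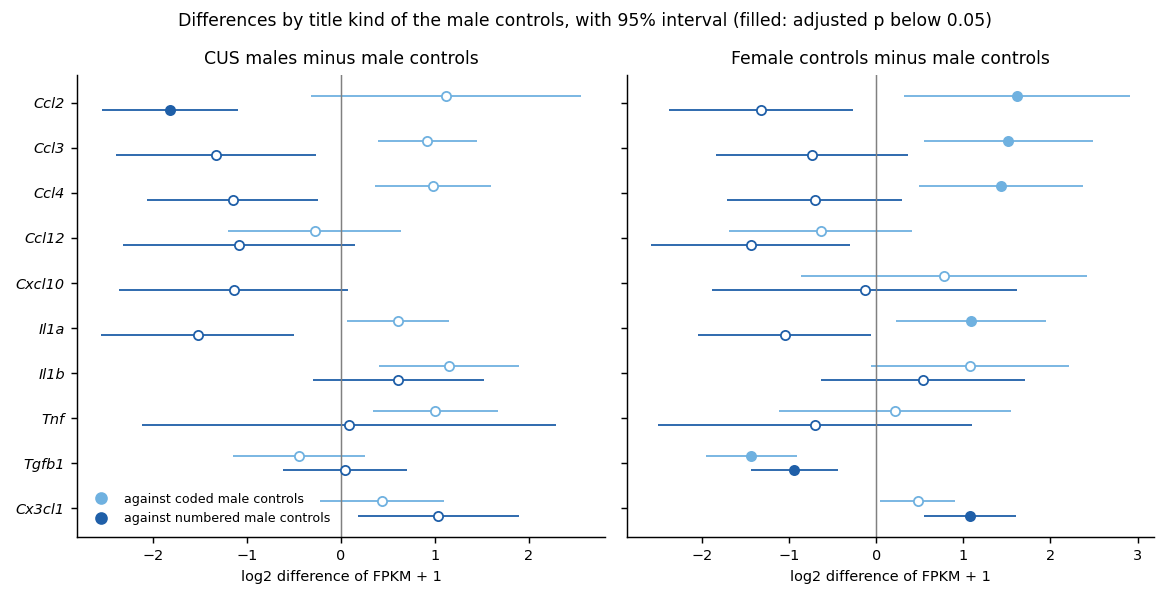
Difference of log2(FPKM + 1) with its 95% interval for CUS males (left) and female controls (right) against the 3 coded (light) or the 3 numbered (dark) Sst male controls. Ccl2, Ccl3, Ccl4 and Il1a lie on opposite sides of 0 for the 2 kinds of male control in both panels, and filled points have an adjusted p below 0.05 in limma.

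Both kinds of control were then compared directly, which is a check within 1 labelled group. Ccl3 (-2.25, SE 0.47, adjusted p 0.045) and Ccl4 (-2.14, SE 0.38, adjusted p 0.029) were lower in the 3 coded than in the 3 numbered controls, by 4.76-fold and 4.40-fold, in a fit that called 4.11% of 14230 genes. Il1a (-2.13, SE 0.47, adjusted p 0.05002) and Ccl2 (-2.94, SE 0.65, adjusted p 0.051) were as large and just missed the threshold. Of the 10 members, 6 did not overlap between the kinds, beside 33.5% of all genes. Tgfb1 (0.49, SE 0.41) and Cx3cl1 (0.60, SE 0.36) were the only 2 with a value above 0. Without the averaged pair, Ccl3 (-1.74, adjusted p 0.015) and Ccl4 (-1.80, adjusted p 0.014) were still called, and 3 members were called in all. The other one was Il1a (-1.64, adjusted p 0.019), and 13.7% of genes were called in that fit. Without SS04031R only Ccl2 was called and without SST4-M only Ccl4, and without SST040241L, SST04241LL or SST3-M none was called in limma, with 4 members at an unadjusted p below 0.05 in each of these fits.

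The rest of the signalling pathway was examined through lists written out with earlier results of these data known. Among the receptors of these ligands, Cx3cr1 and Tgfbr1 had a median of 492 and 142 FPKM over the 22 samples, and Il1r2, a decoy receptor, was listed at 0 in all. Between the sexes 4 of 12 receptors tested were called, beside 11.7% of all genes. Cx3cr1 and Tgfbr2 (39.1 against 71.9 FPKM, adjusted p 0.037), a subunit of the Tgfb1 receptor, were lower in females. Tnfrsf1b was also lower (19.6 against 37.1 FPKM, adjusted p 0.040), and Ackr1 was higher (2.06 against 0.775 FPKM, adjusted p 0.047). Against numbered males alone 2 of 12 were called, Cx3cr1 and Tnfrsf1b, both lower in females, with 3.41% of all genes called. Against coded males alone 5 of 12 were called, 3 lower and 2 higher, with 41.5% of all genes called. Between Sst and Pvalb samples 3 of 13 were called, beside 7.80% of all genes, and all 3 were higher in Sst. They were Il1rap (6.17 against 3.04 FPKM, adjusted p 0.033) and Il1r1 (2.82 against 0.872 FPKM, adjusted p 0.040), which together form the signalling receptor for Il1a and Il1b, and Tgfbr3 (2.62 against 0.825 FPKM, adjusted p 0.040). None was called in CUS against all 6 controls or between title kinds. Against the numbered controls 1 of 12 was called, Tgfbr1, lower after CUS (108 against 227 FPKM, adjusted p 0.041), with 16.1% of all genes called.

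Of 18 tested genes for processing and release, 6 were called between the sexes, beside 11.7% of all genes, and all 6 were lower in females. They include Ctss, the microglial protease that sheds Cx3cl1 (641 against 1856 FPKM, adjusted p 0.012), Adam10, a second Cx3cl1 sheddase (17.8 against 39.9 FPKM, adjusted p 0.012) and Itgb5 (66.6 against 187 FPKM, adjusted p 0.021). Against numbered males alone 2 of 18 were called, Gsdmd and Ctss, both lower in females, with 3.41% of all genes called. Against coded males alone 11 of 19 were called, 8 of them lower, with 41.5% of all genes called. No gene of this list was called between lines, in CUS against all 6 controls or between title kinds. Against the numbered controls 2 of 18 were called, with 16.1% of all genes called. Nrros (12.03 against 50.4 FPKM, adjusted p 0.0034) and Casp1 (6.40 against 31.0 FPKM, adjusted p 0.038) were lower after CUS. The inflammasome genes Nlrp3 and Casp1 were present in all 22 samples (lowest 9.96 and 5.09 FPKM), while Il1rn, the natural antagonist of interleukin 1, was at most 0.551 FPKM.

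Other chemokines were mostly low. Of 28 listed, 3 were at 0 in all samples and 15 had a mean above 0.4 FPKM. Between the sexes 3 of 14 tested were called, beside 11.7% of all genes, and all 3 were higher in females. They were Cxcl12 (36.1 against 11.8 FPKM, adjusted p 0.022), Ccl5 (2.69 against 0.0481 FPKM, adjusted p 0.0040) and Ccl19 (5.18 against 1.61 FPKM, adjusted p 0.021). Against numbered males alone Cxcl12 and Ccl5 were called higher in females, with 3.41% of all genes called. Against coded males alone Ccl5 and Ccl19 were called higher and Cxcl16 lower, with 41.5% of all genes called. Between lines 2 of 15 were called, beside 7.80% of all genes. Ccl8 (0.104 against 3.82 FPKM) and Cxcl17 (0.430 against 2.46 FPKM) were lower in Sst samples. Of 30 other cytokines, 18 were tested between the sexes and 3 called: Tnfsf13b lower (0.498 against 4.30 FPKM, adjusted p 0.0067), Il18 higher (154 against 81.1 FPKM, adjusted p 0.030) and Tnfsf10 higher (4.44 against 2.45 FPKM, adjusted p 0.047). Against numbered males alone only Tnfsf13b of the 18 was called, and against coded males alone 8 of 18 were called. Il34, a ligand of Csf1r, was higher in Sst than in Pvalb samples (3.65 against 0.936 FPKM, adjusted p 0.025), and Mif was lower in coded than in numbered male controls (15.4 against 62.1 FPKM, adjusted p 0.027).

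In the NF-kB list 4 of 20 genes were called between the sexes, beside 11.7% of all genes, and all 4 were lower in females. The largest were Nfkb2 (1.43 against 5.86 FPKM, adjusted p 0.016), Icam1 (14.6 against 34.2 FPKM, adjusted p 0.021) and Rela (11.99 against 25.6 FPKM, adjusted p 0.037). Against numbered males alone 2 of 20 were called, Icam1 and Nfkbib, both lower in females, with 3.41% of all genes called. Against coded males alone 9 of 19 were called, 8 of them lower, with 41.5% of all genes called. Between title kinds 1 of 19 was called, beside 4.11% of all genes: Nfkbiz (23.9 against 95.5 FPKM, adjusted p 0.034). In the immediate early list 6 of 20 genes were called lower in females (11.7% of all genes were called), led by Jund, Hspa1a and Hspa1b. In coded controls 5 of 20 were called lower than in numbered ones (4.11% of all genes were called), led by Dusp1 (74.6 against 668 FPKM, adjusted p 0.011), Zfp36 (231 against 1800 FPKM, adjusted p 0.024) and Egr2 (4.56 against 37.0 FPKM, adjusted p 0.0042). Zfp36 encodes the protein that binds AU-rich elements and speeds the decay of Tnf mRNA. The sex difference of the immediate early list varied with the male controls. Against numbered males 7 of 20 genes were called lower in females (list median -1.15), with 3.41% of all genes called. Against coded males 6 were called lower and 4 higher (median 0.02), with 41.5% of all genes called. The 4 higher ones included Zfp36 (909 against 231 FPKM) and Dusp1 (272 against 74.6 FPKM). Between Sst and Pvalb samples Socs3 (23.9 against 40.8 FPKM, adjusted p 0.047) and the ribonuclease gene Zc3h12a (3.56 against 12.4 FPKM, adjusted p 0.0069) were lower in Sst, with 7.80% of all genes called. No gene of these lists was called in CUS against all 6 controls.

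The genes whose pattern was most like that of each member were found from deviations of log2(FPKM + 1) from the mean of the group and title kind, over 22 samples and 13256 genes, with Pearson's r as a description. Il1a was most like Nfkbia, the inhibitor of NF-kB (r = 0.96), Gpr84 (0.95) and Ppp1r3b (0.94). Tnf was most like Gpr84 (0.95), Tob2 (0.95) and Marcksl1 (0.95), and Ccl3 most like Cd83 (0.93), Mrpl17 (0.92) and Atf3 (0.91). These values rest in part on SST-F and the 2 averaged pairs: over the other 19 samples r was 0.75 for Il1a with Nfkbia, 0.82 for Tnf with Gpr84 and 0.81 for Ccl3 with Cd83. Ccl2 was most like Capzb (0.91), Klf3 (0.90) and Dusp1 (0.89), and kept 0.90, 0.90 and 0.94 over those 19 samples. Tgfb1 was most like Arhgap27 (0.95), Sall1 (0.94) and Hnrnpul1 (0.94), each at 0.93 or above over the 19 samples. Sall1 is a transcription factor of microglial identity.

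Ccl4 was most like Sar1b, Arpc1b and Zfp449 (r = 0.88, 0.87 and 0.81), Ccl12 like Litaf, Nuak2 and Ensa (0.88, 0.86 and 0.86) and Cxcl10 like Prmt8, Cd24a and Ccrl2 (0.89, 0.87 and 0.87). Il1b was most like Rnf4, Sp3 and Armcx3 (0.92, 0.92 and 0.91), and Cx3cl1 like BC031361, Ncapd2 and Mkks (0.92, 0.89 and 0.86). Over the 19 samples Cx3cl1 kept 0.91, 0.87 and 0.89 with these genes, whereas r fell to between 0.64 and 0.82 for those of Ccl4, Ccl12, Cxcl10 and Il1b. No member was among the 3 genes most like another member. Depth and preparation of the samples were not adjusted for, so these values describe the samples only.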

How the data were processed

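RNA-seq libraries were made by the authors from FACS-sorted tdTomato-positive mPFC cells after papain digestion and ribosomal RNA depletion. The authors deposited 1 table of FPKM values for 24 libraries and 23993 genes. The submitters' processing notes name TopHat2, Cufflinks, Cuffdiff and mm10, while the Methods name mm9 and mm10 with TopHat2 and HISAT2, StringTie and a batch correction. Which of these made the table, and whether counting used strand, is not given in the sources used here. Counts, on which the study ran its own tests, were not used here, so the number of fragments behind each FPKM is unknown and no counting interval is given. A rough relative depth was read from the lowest nonzero values against SST2-F. It was 0.459 to 1.53 in Sst females, 1.67 to 2.47 in numbered and 0.759 to 0.933 in coded Sst male controls. In CUS libraries it was 1.05 to 1.13 and in Pvalb libraries 0.478 to 1.83. The part of depth in the values of low genes was not tested.

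Samples were grouped by the labels, and near-identical pairs were averaged (an SD of the log2 ratio, over genes above 5 FPKM, below 10% of the SD for the group's next closest pair). The test was limma 3.58.1 (R 4.3.3, trend and robust) on log2(FPKM + 1). It took each gene whose mean exceeded 0.4 FPKM in the compared samples. P-values were two-sided, adjusted by Benjamini-Hochberg across every tested gene, and called below 0.05. Fold changes are on that scale, which understates the change of low genes. A gene that missed the filter was tested by exact permutation. The limma step was tested on simulated data. Named genes were all 10 members, the 3 largest called genes of each pathway list, marker genes and the 3 genes most like each member (mean above 1 FPKM). The members and lists were chosen with earlier results of these data known. Tgfbr2, the inflammasome genes and other list members outside that rule were named after their values were seen. Alternatives were another pseudocount, filter, scaling, set of controls, covariate or block, and leaving out samples. Values of some marker and list genes are not reported here.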

Additional observations from a re-analysis of the deposited data

Results flagged for a closer look

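In 9 of 30 combinations of gene and group tested, 1 sample lay farther from the others than Dixon's 95% limit allows, where chance gives about 1 in 20. All 9 were the highest sample of their group, and all were SST-F or 1 of the 2 averaged pairs. The gap to the nearest sample as a share of the group's range, both on the log2(FPKM + 1) scale, was 0.723 for Ccl3, 0.582 for Ccl12, 0.605 for Cxcl10 and 0.801 for Il1a in SST-F among Sst females. It was 0.633 for Ccl12 and 0.766 for Tnf in the averaged pair among Sst male controls. Among Pvalb males the averaged pair stood apart for Il1a (0.653), Il1b (0.848) and Tnf (0.751). Il1b in that pair was 13.1 FPKM, with the next sample at 0.926 FPKM. The cause was not tested.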

How the results depend on the processing

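Of 788 values recomputed for single genes, 653 kept their direction and side of the threshold, 38 passed it newly, 22 lost it and 75 changed sign, and the cause was not tested. Between the sexes 2 members were called, against 1 after quantile normalization, 5 with coded males (5 also without SST-F), 4 with numbered males without SST-F and the averaged pair and 1 to 2 without 1 male. Between lines none was called in limma (4 at an unadjusted p below 0.05), against 1 with female or with numbered Sst controls, 4 without SST-F and both pairs and 0 to 1 without 1 Pvalb sample (Cx3cl1, without the averaged pair or PV6-M). In CUS none was called (1 at an unadjusted p below 0.05), 0 without any 1 sample, 1 with numbered controls and 7 with these less the averaged pair. Between title kinds 2 were called, against 1 with no filter, 4 after quantile normalization, with small nucleolar RNAs removed or with every library counted, 0 with the microglia covariate (5 at an unadjusted p below 0.05) and 0 to 3 without 1 sample.

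Replicate numbers did not pair the samples (same-numbered correlations of deviations from -0.040 to 0.069). With the replicate block over 3 females and 3 males 0 members were called, as in these samples without the block, where 11 and 24 of 14286 genes were called. With the block Tgfb1 was -1.07 (adjusted p 0.23) and Cx3cl1 0.91 (adjusted p 0.31), values close to those in all samples. The female minus male values with and without the block were -2.21 for Ccl2, -0.79 for Ccl3, -0.56 for Ccl4, -1.29 for Cxcl10 and -1.40 for Il1a. Between lines 1 member (Tgfb1) was called with the block and 1 without it in the same libraries.

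Sign changes between the sexes were, for Ccl2, -0.043 with a pseudocount of 5, -0.49 with the microglia covariate, -0.14 with every library counted and -1.32 with numbered males. For Il1a these were -0.0022, -0.34, -0.28 and -1.05. Numbered males gave -0.73 for Ccl3, -0.71 for Ccl4 and -0.13 for Cxcl10, and coded males 0.22 for Tnf. Numbered males without SST-F and the pair gave -1.23 for Ccl2, -0.53 for Ccl3, -0.63 for Ccl4, -1.04 for Cxcl10, -0.83 for Il1a and 0.073 for Tnf. Cxcl10 was -0.039 with the covariate and -0.24 without SST-F and the averaged male pair. Without 1 male the ranges were -0.30 to 0.56 for Ccl2, -0.26 to 0.43 for Il1a and -0.41 to 0.30 for Tnf.

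Between lines the microglia covariate gave 1.73 for Ccl2, 0.41 for Ccl3, 0.34 for Ccl4, 0.39 for Cxcl10 and 0.65 for Il1a. Male Sst controls alone gave 0.51 for Ccl12 and -0.055 for Il1b. Without the high-Xist libraries Il1b was -0.016 and Tnf -0.018, and Ccl12 ranged from -0.18 to 0.16 without 1 Pvalb sample.

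In CUS the covariate gave 1.75 for Ccl2, 0.88 for Ccl3, 0.97 for Ccl4, 0.68 for Il1a and 0.14 for Tgfb1. Coded controls gave 1.12 for Ccl2, 0.92 for Ccl3, 0.98 for Ccl4 and 0.61 for Il1a. Title kind as a covariate, with or without the averaged pair, gave the same values by design, since all CUS libraries are coded. These fits are therefore not separate evidence, although each is counted among the 788 values. Quantile normalization gave 0.043 for Ccl3 and 0.060 for Ccl4. Tgfb1 was 0.041 with numbered controls and 0.43 with controls of both sexes. Without 1 sample the ranges were -0.80 to 0.058 for Ccl2, -0.49 to 0.23 for Ccl3 and -0.37 to 0.26 for Ccl4. Between title kinds Tnf ranged from -1.56 to 0.22 without 1 sample.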

Other observations

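Within the Sst females Cxcl10 was listed at 0 in 3 libraries (SST1-F, SST3-F, SST4-F) and was 2.09, 1.66 and 0.994 FPKM in SST2-F, SST5-F and SST6-F. Tnf was 5.43, 3.64 and 5.82 FPKM in the former 3 and 13, 14.3 and 14.5 FPKM in the latter. Ccl2 was 3.85, 6.80 and 6.06 FPKM in the former and 15.3, 15.3 and 16.8 FPKM in the latter. These are values only, and no label separates these libraries.

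Among the Pvalb libraries Ccl12 was 17.2, 19.6 and 16.7 FPKM in PV1-M, PV4-M and PV5-M, which had high Xist, and 28.3 and 38.4 FPKM in PV3-M and PV6-M. Tnf was 7.02, 7.49 and 8.71 FPKM in the former and 3.31 and 3.77 FPKM in the latter. These differences were not tested.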
